A study of Rattus norvegicus with 38 samples.

Results

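The oxidative phosphorylation genes of rat liver were followed through 38 RNA-seq libraries, as every gene that the count table places on the mitochondrial chromosome together with every gene whose name marks it as a subunit or assembly factor of complexes I to V. The rule took names that start with Nduf, Uqcr, Cox4 to Cox8 or Atp5, and the 4 names Sdha, Sdhb, Sdhc and Sdhd. It found 107 of the 31038 genes in the table, 13 mitochondrially encoded and 94 nuclear. All 13 mitochondrial genes and 84 of the nuclear genes had enough counts to be tested, among 14786 genes tested in all. By complex, the nuclear genes were 36 of complex I (34 tested), 4 of complex II, 8 of complex III, 18 of complex IV (11 tested), 16 of complex V, 9 assembly factors, 2 related genes and 1 pseudogene. The 10 that were not tested were Ndufa1, Ndufs6, Ndufa4l2, Cox6a2, Cox6b2, Cox7a1, Cox7b2, Cox8b, Cox8c and the pseudogene Cox6c-ps1. Cyc1 lies outside the name rule, and the rule found no gene named Cox6b1 or Ndufa13. Cyc1, Cox6b1 and Ndufa13 are not analysed here, and the counts by complex leave them out.

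The respiratory chain lies in the inner mitochondrial membrane. Complexes I and II pass electrons from NADH and succinate to ubiquinone, complex III passes them on to cytochrome c, and complex IV to oxygen. Complexes I, III and IV pump protons, and ATP synthase (complex V) uses the proton gradient to make ATP. The mitochondrial genome codes for core subunits of complexes I, III, IV and V, and nuclear genes code for all others, including every subunit of complex II. Liver uses this system to power gluconeogenesis, urea synthesis and lipid handling.

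Livers of Sprague-Dawley rats were taken on day 28, with 1 library per sample. LPS, the endotoxin of gram-negative bacteria, was injected intraperitoneally. Agents that the labels call EF, PF and RD went into the stomach, EF and PF each at 2.5 g/kg and RD at 200 mg/kg. The groups were LPS alone (n = 5) and control (n = 5), LPS_EF (n = 5) and EF (n = 5), LPS_EF_PF (n = 4) and EF_PF (n = 5), and LPS_EF_RD (n = 5) and EF_RD (n = 4). No group received PF or RD without EF. The sources used here state neither the dose and timing of LPS nor the age of the rats, and 1 batch label covers every library. Hepatocyte is the labelled cell type, but no separation step is described, and markers of other liver cells were present. In such bulk libraries fewer cells of a type and less RNA per cell cannot be told apart. Each library held 19716622 to 35835012 counted read pairs, and mitochondrial genes took 3.08% to 4.52% of them.

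Some libraries held markers of other tissues. Skeletal muscle markers (22 genes) summed to 5504 CPM (reads of a gene relative to its library's TMM-scaled size) in EF_RD 1 and to 560 CPM in LPS 3, against 5.13 to 9.18 CPM in the other 36 libraries. Exocrine pancreas markers (14 genes) summed to 3402 CPM in control 5, 1989 CPM in LPS 3 and 126 CPM in EF_RD 1, and to at most 21.8 CPM elsewhere. In LPS against control, 29 nuclear members were called without control 5 and 23 without LPS 3, in place of 28. Neutrophil and monocyte markers (15 genes) summed to 262 to 507 CPM in LPS, against 33.4 to 118 CPM in control, and they stayed at 102 CPM in LPS_EF 7 and 131 CPM in LPS_EF_RD 6. The 12 hepatocyte markers summed to 157684 to 184942 CPM in LPS, against 193348 to 232653 CPM in control, and 7 of the 12 were called lower and 1 higher there (median −0.44). In LPS_EF_PF against EF_PF 8 hepatocyte markers were called lower (median −0.46), in LPS_EF against EF 3 (median −0.08) and in LPS_EF_RD against EF_RD 2 (median −0.15), with 1 called higher in each. These medians were lowest in the 2 comparisons with the most nuclear members called lower, as given below. The other 2 comparisons ran the opposite way. LPS_EF against EF had 25 nuclear members called lower at a marker median of −0.08, and LPS_EF_RD against EF_RD had 6 at −0.15. Endothelial markers summed to 391 to 520 CPM in LPS, against 175 to 369 CPM in control, and the groups did not overlap. Of 10 Kupffer cell and macrophage markers, 5 were called higher in LPS against control, 5 in LPS_EF against EF, 6 in LPS_EF_PF against EF_PF and 4 in LPS_EF_RD against EF_RD. The part of this shift in cell markers in the results below was not tested.

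Levels between genes were compared per length, in TPM. COX1, the catalytic core of complex IV (rn6 chromosome M, 5323 to 6867), led the mitochondrial genes with a mean of 23716 TPM over all libraries. ATP6, the proton channel subunit of ATP synthase, had 11365 TPM, CYTB, the haem protein of complex III, 6473 TPM, and ND1, a membrane subunit of complex I, 3876 TPM. The lowest was ND6 at 302 TPM. COX2, which takes electrons from cytochrome c, had only 982 TPM beside 10648 TPM for COX3, although both belong to the same complex. Whether reads that match several places were lost from COX2 was not tested. The highest nuclear gene was Atp5b, the catalytic beta subunit of ATP synthase, at 1153 TPM, followed by Atp5a1, the alpha subunit, at 606 TPM and Cox4i1, the common isoform of complex IV subunit 4, at 573 TPM. The spans of ATP8 and ATP6 overlap by 43 bases, ND4L and ND4 by 7 and ND5 and ND6 by 23. ND6 is read from the other strand, and since the counting used no strand setting, its reads cannot be told apart from reads of the opposite strand.

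In LPS livers against control livers, 27 of 84 nuclear genes were called lower and 1 higher, where 18.1% of all genes tested were called lower and 18.6% higher. The median log2 fold change of the 84 was −0.22, against −0.002 for all genes, and 80 of the 84 values were negative, against 50.1% of all genes. Members share libraries and moved together from liver to liver, as given further on, so their signs are not independent observations. Between libraries of 1 group, the median log2 CPM of the nuclear members had an SD of 0.17, against 0.02 for all genes (mean over groups). Of the 13 mitochondrial genes, 2 were called lower and none higher, with a median of 0.04. A call is an adjusted p under 0.05 in edgeR's quasi-likelihood test with Benjamini-Hochberg adjustment over all genes tested. It weighs a difference against the spread between livers within groups, estimated over all 38 libraries and not only those compared.

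Nuclear members were also mostly negative within each extract treatment, with 77, 79 and 69 of 84 values below 0 for EF, EF_PF and EF_RD, against 52.1%, 52.1% and 52.5% of all genes. These signs are not independent either, since a shift shared by the members in 1 library can move most of them together. In LPS_EF against EF, 25 of 84 nuclear genes were called lower and none higher (median −0.17, all genes −0.02), where 14.5% of all genes were called lower and 14.6% higher. The higher side of that comparison had no nuclear member with an unadjusted p under 0.05 in edgeR, and DESeq2 also called none higher. Without EF 5 the nuclear median there was −0.02, against 0.01 for all genes. In LPS_EF_PF against EF_PF, 45 were called lower and 1 higher (median −0.38, all genes −0.02), where 17.3% of all genes were called lower and 19.2% higher. In LPS_EF_RD against EF_RD, 6 were called lower and none higher (median −0.10, all genes −0.02), where 10.7% of all genes were called lower and 12.8% higher, so the share of members called, 7.14%, lay below the background. One nuclear member was higher there at an unadjusted p under 0.05 by edgeR, and DESeq2 called none higher. The count of 6 became 11 without LPS_EF_RD 6 and 10 without LPS_EF_RD 1. The counts are not shown to differ from those of LPS against control. The interactions of LPS with EF, EF_PF and EF_RD, each set against the response without extract, called 0 of 97 members each, as given further on. Whether the LPS response differs between 1 extract treatment and another was not tested. Fitting only the libraries compared gave 32 calls in LPS against control, 7 in LPS_EF against EF, 66 in LPS_EF_PF against EF_PF and 2 in LPS_EF_RD against EF_RD, and scaling by total counts gave 16 in LPS against control and 25 in LPS_EF_PF against EF_PF.

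**Figure D1:**
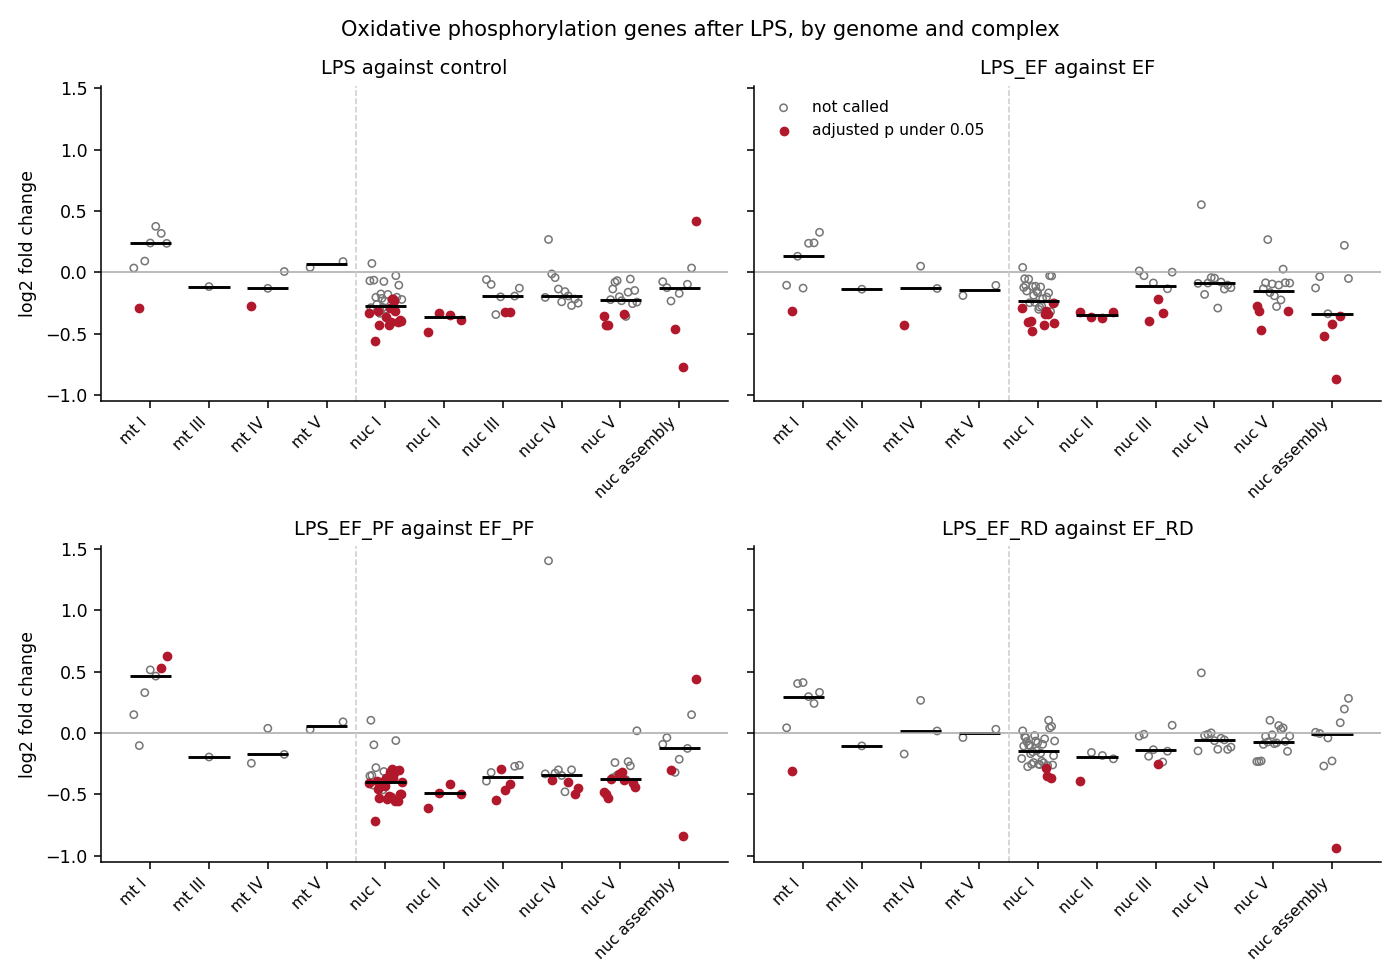
Log2 fold changes of the 97 tested genes (1 point each; y axis) by genome (mt, mitochondrially encoded; nuc, nuclear) and complex (x axis) in the 4 comparisons with LPS, with filled points for adjusted p under 0.05 and bars for the median. Nuclear genes of complexes I to V sit mostly below 0, with medians of −0.27 (I) and −0.37 (II) in LPS against control, and the mitochondrial genes of complex I mostly above it, with a median of 0.24.

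Across the 4 comparisons, which share no libraries, 4 nuclear genes were called lower in every one: Sdha, Uqcrc2, Ndufaf4 and Ndufs1. A further 18 of 84 nuclear genes were called lower in 3 comparisons, 7 in 2, 19 in 1 and 36 in none. Over all 14786 genes, 677 were called lower in all 4 and 10542 in none. The share called in all 4 was 4.76% of nuclear members, close to the 4.58% of all genes. In 3 comparisons it was 21.4% of nuclear members and 5.64% of all genes, and in none 42.9% and 71.3%. Ndufs1, the largest iron-sulfur subunit of the NADH-oxidising arm of complex I, was singled out after its values were seen. Its log2 fold changes were −0.22 in LPS against control (adjusted p = 0.0226), −0.31 in LPS_EF against EF (adjusted p = 0.00221), −0.37 in LPS_EF_PF against EF_PF (adjusted p = 0.000594) and −0.29 in LPS_EF_RD against EF_RD (adjusted p = 0.00941). The other genes called lower in 3 comparisons included the complex I core subunits Ndufs3, Ndufs7, Ndufv1 and Ndufv2, the complex III subunit Uqcrfs1, and the alpha, beta and gamma subunits of the ATP synthase head (Atp5a1, Atp5b and Atp5c1).

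Complex II, succinate dehydrogenase, also works in the citric acid cycle and has no mitochondrially encoded subunit. Sdha is the flavoprotein that oxidises succinate (rn6 chromosome 1, 31545631 to 31570601), and Sdhb carries the iron-sulfur clusters (chromosome 5, 159484378 to 159505063). Sdhc (chromosome 13, 89498047 to 89518979) and Sdhd (chromosome 8, 55028125 to 55037604) anchor the complex in the membrane. All 4 genes were lower together in LPS, LPS_EF and LPS_EF_PF livers, so their promoters are shown. The RefSeq promoters (GRCr8, 250 bases before to 50 after the start) are chr1:30764303-30764602 on the plus strand for Sdha, chr5:158547684-158547983 on the plus strand for Sdhb, chr13:86097976-86098275 on the minus strand for Sdhc and chr8:59850592-59850891 on the minus strand for Sdhd. Capitals mark matches to 3 motifs of factors known to regulate respiratory genes: NRF-1 (searched as GCGCA and GCGC with any 1 base between them), ETS family factors such as GABP (CCGGAAG) and YY1 (AAGATGGC), on both strands. None of the marked stretches overlaps another.
Sdha: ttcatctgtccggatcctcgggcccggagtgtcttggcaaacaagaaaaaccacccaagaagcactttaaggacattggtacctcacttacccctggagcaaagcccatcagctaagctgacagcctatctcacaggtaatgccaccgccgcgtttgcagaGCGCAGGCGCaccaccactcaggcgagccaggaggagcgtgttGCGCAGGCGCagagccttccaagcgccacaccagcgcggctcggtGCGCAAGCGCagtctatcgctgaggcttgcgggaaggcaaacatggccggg
Sdhb: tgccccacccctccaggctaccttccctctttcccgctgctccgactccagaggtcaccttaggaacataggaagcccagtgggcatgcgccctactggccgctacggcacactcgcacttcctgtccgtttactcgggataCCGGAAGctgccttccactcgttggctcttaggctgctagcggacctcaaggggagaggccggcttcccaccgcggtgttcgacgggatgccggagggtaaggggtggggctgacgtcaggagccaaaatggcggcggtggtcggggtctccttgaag
Sdhc: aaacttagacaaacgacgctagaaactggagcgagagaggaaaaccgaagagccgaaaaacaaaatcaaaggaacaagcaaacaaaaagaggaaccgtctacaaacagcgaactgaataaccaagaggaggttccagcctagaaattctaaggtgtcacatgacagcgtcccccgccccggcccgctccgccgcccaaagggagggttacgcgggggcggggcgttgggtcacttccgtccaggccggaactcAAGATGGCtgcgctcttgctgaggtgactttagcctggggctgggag
Sdhd: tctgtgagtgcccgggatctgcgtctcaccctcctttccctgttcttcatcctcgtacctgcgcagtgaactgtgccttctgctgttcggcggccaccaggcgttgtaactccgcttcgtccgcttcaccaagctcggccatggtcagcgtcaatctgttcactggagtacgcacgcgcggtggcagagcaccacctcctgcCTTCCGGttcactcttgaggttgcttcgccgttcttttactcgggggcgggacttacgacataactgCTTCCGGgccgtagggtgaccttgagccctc

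The Sdha promoter held 3 NRF-1 matches and the Sdhd promoter 2 ETS matches, read there on the opposite strand. The Sdhb promoter held 1 ETS match and the Sdhc promoter 1 YY1 match, so no 1 motif was common to the 4. RefSeq promoters were matched for 81 of the 94 nuclear members. An NRF-1 match was found in 16 of these 81 (19.8%), against 4.25% of all 33469 rat promoters of the same length and 5.67% of the 21851 that belong to protein-coding genes, as all 81 do. The ETS motif was found in 20 of the 81 (24.7%), against 8.75% of all and 10.7% of protein-coding promoters, and the YY1 motif in 16 of the 81 (19.8%), against 3.17% of all and 3.67% of protein-coding promoters. A match describes the letters only, and binding was not measured.

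Sdha had 210, 227, 226, 239 and 246 CPM in LPS livers, against 351, 311, 312, 301 and 335 CPM in control livers. Every LPS liver lay below every control liver. Its log2 fold change was −0.49 ± 0.08 (SE), with adjusted p = 3.82e-05. In LPS_EF livers it had 254, 231, 221, 217 and 285 CPM, against 257, 305, 316, 327 and 306 CPM in EF livers. The groups overlapped through LPS_EF 7 and EF 1, and the fold change was −0.32 ± 0.08 (adjusted p = 0.00342). LPS_EF_PF livers held 211, 226, 207 and 192 CPM, against 318, 314, 350, 295 and 320 CPM in EF_PF livers, with a gap between the groups and a fold change of −0.61 ± 0.09 (adjusted p = 5.04e-06). LPS_EF_RD livers held 234, 188, 225, 267 and 219 CPM, against 296, 295, 315 and 284 CPM in EF_RD livers. The groups did not overlap, and the fold change was −0.39 ± 0.09 (adjusted p = 0.00159).

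Sdhb had 68.2, 70.0, 66.0, 67.7 and 72.2 CPM in LPS livers, against 103, 79.2, 84.6, 76.3 and 89.7 CPM in control livers (−0.33 ± 0.10, adjusted p = 0.00723). Sdhc had 86.0, 84.4, 87.8, 92.3 and 91.1 CPM in LPS livers, against 134, 108, 101, 105 and 113 CPM in control livers (−0.35 ± 0.09, adjusted p = 0.00204). Sdhd had 98.3, 96.5, 103, 101 and 111 CPM in LPS livers, against 157, 123, 123, 123 and 141 CPM in control livers (−0.39 ± 0.09, adjusted p = 0.00164). For each of the 3 genes all LPS livers lay below all control livers, and control 3 was the highest library of all 10. The widest falls came in LPS_EF_PF against EF_PF, at −0.49 ± 0.10 for Sdhb (adjusted p = 0.000409), −0.41 ± 0.09 for Sdhc (adjusted p = 0.000679) and −0.49 ± 0.10 for Sdhd (adjusted p = 0.000256). In LPS_EF against EF the fold changes of these 3 genes ran from −0.37 to −0.32, with groups that overlapped. In LPS_EF_RD against EF_RD they were −0.16, −0.18 and −0.21 and did not pass the test (adjusted p = 0.265, 0.141 and 0.118), although the groups did not overlap for Sdhd. Fitting the LPS_EF and EF libraries alone ended the 4 calls there, with adjusted p = 0.0671 for Sdha, 0.0759 for Sdhb, 0.0686 for Sdhc and 0.0837 for Sdhd.

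**Figure D2:**
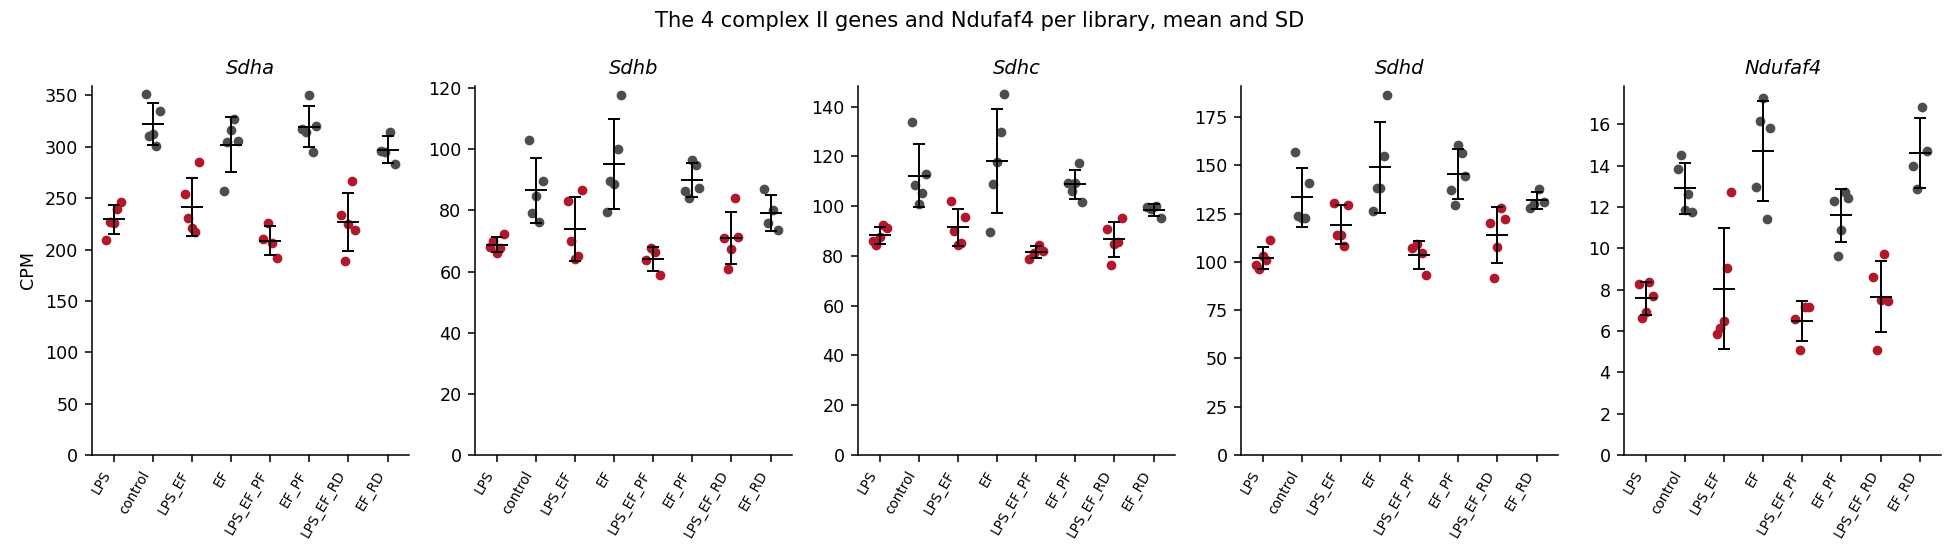
CPM per library (points; y axis from 0) of the 4 complex II genes and the assembly factor Ndufaf4 in the 8 groups (x axis; LPS groups in red, groups without LPS in grey), with mean and SD as bars. Sdha lies at 210 to 246 CPM in LPS livers and at 301 to 351 CPM in control livers.

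Complex I takes electrons from NADH. Of its 34 tested nuclear genes, 15 were lower in LPS against control, 10 in LPS_EF against EF, 22 in LPS_EF_PF against EF_PF and 3 in LPS_EF_RD against EF_RD, and none was higher. These are 44.1%, 29.4%, 64.7% and 8.82% of the 34, against 18.1%, 14.5%, 17.3% and 10.7% of all genes called lower. The 7 nuclear core subunits, which carry the flavin and the iron-sulfur clusters, had 6, 4, 7 and 3 calls in that order of comparisons, and the 27 supernumerary subunits had 9, 6, 15 and 0. The median fold changes of core and supernumerary subunits were −0.32 and −0.26 in LPS against control, and −0.27 and −0.10 in LPS_EF_RD against EF_RD. Core genes also had longer transcripts (median 1088 bases, against 627) and smaller standard errors (median 0.10, against 0.13 in LPS against control), so the 2 classes had unequal chances of a call, and their difference was not tested.

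Among complex I genes the widest fall after LPS alone was that of Ndufa6, a supernumerary subunit that binds the acyl carrier protein. It had 32.0, 24.9, 29.1, 24.3 and 27.9 CPM in LPS livers, against 50.2, 37.1, 39.0, 33.5 and 44.6 CPM in control livers. The groups did not overlap, and the log2 fold change was −0.56 ± 0.15 (adjusted p = 0.00458). In LPS_EF_PF livers it had 25.2, 32.8, 26.6 and 22.8 CPM, against 41.8, 40.2, 41.7, 46.4 and 50.1 CPM in EF_PF livers (−0.71 ± 0.16, adjusted p = 0.00102). Ndufab1, the mitochondrial acyl carrier protein itself, fell most in LPS_EF against EF. It had 34.2, 28.5, 28.1, 31.8 and 30.2 CPM in LPS_EF livers, against 35.9, 41.0, 41.2, 42.7 and 52.0 CPM in EF livers, with no overlap (−0.48 ± 0.11, adjusted p = 0.00137). Ndufs7, which carries the last iron-sulfur cluster before ubiquinone, led in LPS_EF_RD against EF_RD. It had 32.3, 22.8, 23.7, 31.9 and 28.1 CPM in LPS_EF_RD livers, against 40.3, 35.6, 35.7 and 31.9 CPM in EF_RD livers (−0.37 ± 0.14, adjusted p = 0.0488). The 2 groups of that comparison met at 31.9 CPM, and the call was lost in 12 of 20 alternatives.

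Assembly factors did not move as 1 group. Ndufaf4, needed early in complex I assembly (rn6 chromosome 5, 39251370 to 39256542), had the widest fall of all nuclear members in each of the 4 comparisons. It had 8.28, 6.63, 6.92, 8.38 and 7.68 CPM in LPS livers, against 13.8, 14.5, 11.9, 12.6 and 11.7 CPM in control livers (−0.77 ± 0.17, adjusted p = 0.000565). In LPS_EF livers it had 5.87, 6.13, 6.48, 9.07 and 12.7 CPM, against 13, 16.2, 17.3, 11.4 and 15.8 CPM in EF livers, where LPS_EF 7 lay inside the EF range (−0.87 ± 0.17, adjusted p = 0.000269). In LPS_EF_PF livers it had 6.60, 5.09, 7.16 and 7.15 CPM, against 12.3, 9.64, 10.9, 12.7 and 12.4 CPM in EF_PF livers (−0.84 ± 0.18, adjusted p = 0.000475). In LPS_EF_RD livers it had 8.59, 5.08, 7.52, 9.71 and 7.44 CPM, against 14, 12.9, 16.9 and 14.7 CPM in EF_RD livers (−0.93 ± 0.17, adjusted p = 0.000398). Apart from LPS_EF 7, every library with LPS lay below every library of its own comparison without it. These 4 calls held in all alternatives that were run.

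Ndufaf7, a methyltransferase of complex I assembly, was the only nuclear member called higher. It had 9.78, 10.7, 8.07, 10.4 and 7.77 CPM in LPS livers, against 8.06, 6.25, 7.58, 6.59 and 6.39 CPM in control livers, and the groups overlapped (0.42 ± 0.13, adjusted p = 0.00856). In LPS_EF_PF livers it had 9.61, 8.43, 8.48 and 8.50 CPM, against 6.94, 5.15, 7.69, 5.89 and 6.54 CPM in EF_PF livers, with no overlap (0.44 ± 0.13, adjusted p = 0.00897). The fold changes of −0.05 in LPS_EF against EF and 0.28 in LPS_EF_RD against EF_RD did not pass (adjusted p = 0.799 and 0.124). Cox7a2l, which joins complexes III and IV into supercomplexes, had fold changes between −0.12 and −0.00394 and passed in none. In all, 2 of the 9 assembly factors were lower in LPS against control, 4 in LPS_EF against EF, 2 in LPS_EF_PF against EF_PF and 1 in LPS_EF_RD against EF_RD. In that order 18.1%, 14.5%, 17.3% and 10.7% of all genes were called lower.

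In complex III, 2, 3, 4 and 1 of 8 nuclear genes were lower in LPS against control, LPS_EF against EF, LPS_EF_PF against EF_PF and LPS_EF_RD against EF_RD, which is 25%, 37.5%, 50% and 12.5%. Of all genes, 18.1%, 14.5%, 17.3% and 10.7% were called lower in that order, so the share in the last comparison lies near that of all genes. Uqcrfs1, the Rieske iron-sulfur protein, had 110, 102, 106, 107 and 107 CPM in LPS livers, against 165, 130, 122, 118 and 132 CPM in control livers, with no overlap (−0.33 ± 0.09, adjusted p = 0.00533). Uqcrc2, a core protein of the matrix arm, had 123, 104, 130, 149 and 130 CPM in LPS_EF_RD livers, against 154, 143, 162 and 146 CPM in EF_RD livers (−0.25 ± 0.08, adjusted p = 0.0278). Only LPS_EF_RD 6 reached into the EF_RD range. Uqcrb, a small subunit near the ubiquinone site, had 13.8, 20.6, 16.1 and 13.7 CPM in LPS_EF_PF livers, against 22.1, 20.6, 23.9, 25.7 and 25.5 CPM in EF_PF livers (−0.55 ± 0.16, adjusted p = 0.00845). The 2 groups met at 20.6 CPM. It was also called in LPS_EF against EF (−0.39 ± 0.15, adjusted p = 0.0491), where EF 5 alone had 38.6 CPM and the adjusted p was 0.403 without that library.

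Complex IV, the terminal oxidase, had few calls: of its 11 tested nuclear genes none was called in LPS against control, LPS_EF against EF or LPS_EF_RD against EF_RD, and 4 were lower in LPS_EF_PF against EF_PF. In that order 18.1%, 14.5%, 10.7% and 17.3% of all genes were called lower. Cox8a, the common isoform of subunit 8, had 43.6, 58.9, 47.5 and 45.3 CPM in LPS_EF_PF livers, against 56.3, 70.8, 71.4, 74.5 and 71.7 CPM in EF_PF livers. LPS_EF_PF 3 and EF_PF 1 overlapped (−0.50 ± 0.18, adjusted p = 0.0302), and the call was lost in 10 of 20 alternatives. The other 3 were Ndufa4, now counted as a complex IV subunit, Cox5a and Cox7b, at −0.45, −0.39 and −0.40. The median fold change of the 11 genes was −0.19 in LPS against control, close to the −0.22 of all nuclear members, and 10 of the 11 were negative. Cox4i1 had −0.20 ± 0.13 there (adjusted p = 0.212). The median standard error of these 11 genes, 0.14, was larger than the 0.09 of the complex II genes.

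In complex V, 4, 4, 9 and 0 of 16 nuclear genes were lower in the same 4 comparisons, which is 25%, 25%, 56.2% and 0%, against 18.1%, 14.5%, 17.3% and 10.7% of all genes. Atp5b had 839, 873, 924, 955 and 992 CPM in LPS livers, against 1545, 1150, 1152, 1162 and 1169 CPM in control livers. The groups did not overlap, and control 3 stood well above the other control livers (−0.43 ± 0.10, adjusted p = 0.000874). Atp5c1, the rotating gamma subunit, had 172, 137, 135, 131 and 162 CPM in LPS_EF livers, against 183, 202, 196, 196 and 243 CPM in EF livers, with no overlap (−0.47 ± 0.10, adjusted p = 0.000663). In LPS_EF_PF livers it had 124, 141, 131 and 119 CPM, against 186, 161, 201, 198 and 182 CPM in EF_PF livers (−0.53 ± 0.11, adjusted p = 0.000223). The 3 genes for the proton-carrying c subunit, Atp5g1, Atp5g2 and Atp5g3, passed in none of the comparisons other than LPS_EF_PF against EF_PF, where Atp5g2 and Atp5g3 were lower at −0.33 and −0.32 and Atp5g1 had −0.34 ± 0.17 (adjusted p = 0.119).

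Mitochondrially encoded genes went 2 ways. COX1 had 17227, 16064, 17249, 16080 and 19350 CPM in LPS livers, against 21698, 20821, 22115, 19172 and 20391 CPM in control livers. LPS 5 alone reached into the control range (−0.28 ± 0.10, adjusted p = 0.0236). In LPS_EF livers it had 16600, 16429, 19602, 17049 and 17656 CPM, against 23659, 26509, 19763, 21012 and 26872 CPM in EF livers, with no overlap (−0.43 ± 0.10, adjusted p = 0.00119). In LPS_EF_PF against EF_PF it had −0.25 ± 0.10 (adjusted p = 0.0583) with no overlap, and in LPS_EF_RD against EF_RD −0.17 ± 0.10 (adjusted p = 0.227). COX1 took 49.7% to 54.0% of the mitochondrial counts in LPS livers, against 52.3% to 58.0% in control livers.

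ND2, a membrane subunit of complex I, had 1349, 1642, 2069, 1621 and 1939 CPM in LPS livers, against 1807, 2157, 2274, 2097 and 2206 CPM in control livers, with overlap (−0.29 ± 0.11, adjusted p = 0.0313). In LPS_EF livers it had 1666, 1922, 2115, 1573 and 2321 CPM, against 2541, 2147, 1988, 2500 and 2777 CPM in EF livers (−0.32 ± 0.11, adjusted p = 0.0239). In LPS_EF_RD livers it had 1827, 1871, 1894, 1926 and 2154 CPM, against 2322, 2273, 2532 and 2445 CPM in EF_RD livers, with no overlap (−0.31 ± 0.11, adjusted p = 0.0450). These 3 calls were lost in 13 of 21, 9 of 21 and 14 of 20 alternatives.

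The neighbouring genes ND3 to ND6 had mostly positive fold changes. ND5, the distal proton-pumping subunit of complex I, had 750, 1208, 930 and 1005 CPM in LPS_EF_PF livers, against 825, 794, 729, 614 and 404 CPM in EF_PF livers (0.53 ± 0.20, adjusted p = 0.0354). ND6, a membrane subunit of complex I, had 73.0, 148, 93.7 and 105 CPM in LPS_EF_PF livers, against 85.3, 81.6, 67.6, 60.5 and 43.3 CPM in EF_PF livers (0.63 ± 0.21, adjusted p = 0.0179). In both genes LPS_EF_PF 1 lay inside the EF_PF range and EF_PF 6 was the lowest library. Without EF_PF 6 the adjusted p was 0.119 for ND5 and 0.0636 for ND6, and without LPS_EF_PF 3 it was 0.144 for ND5 and 0.141 for ND6. The ND5 call was also lost without EF_PF 5, LPS_EF_PF 4 or LPS_EF_PF 6. In order of start position, ND3, ND4L, ND5 and ND6 had positive values in all 4 comparisons and ND4 in 3, while COX1, ND2 and CYTB were negative in all 4. Apart from ND5 and ND6 in LPS_EF_PF livers, none of the positive values passed. By total counts in place of TMM, 5 mitochondrial genes were called higher and none lower in LPS_EF_PF against EF_PF, and in LPS against control 1 was called higher and none lower. That scaling moved the median of all genes to 0.13 in LPS against control and 0.14 in LPS_EF_PF against EF_PF, and the nuclear medians stayed negative, at −0.09 and −0.21.

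**Figure D3:**
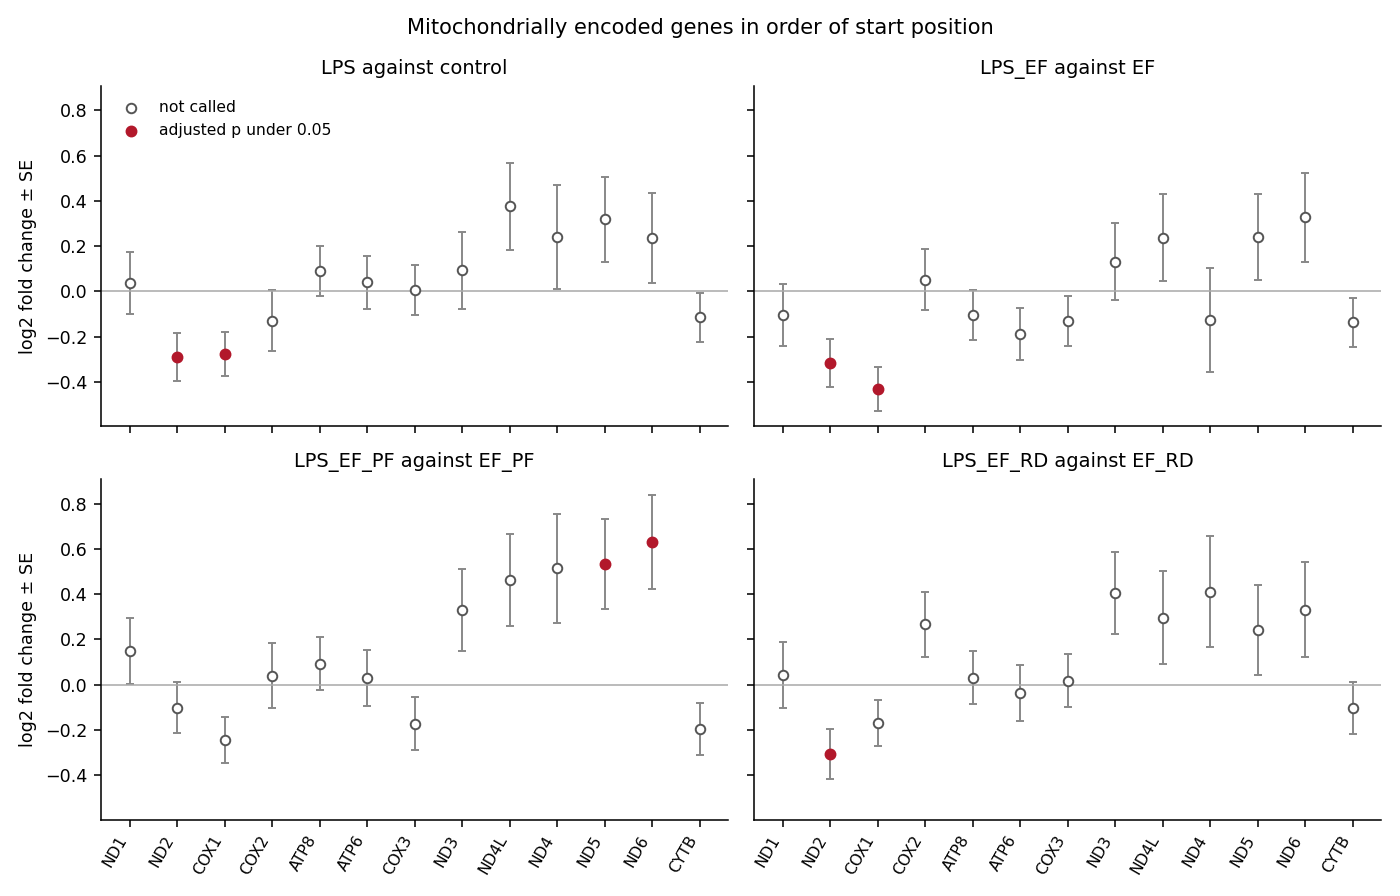
Log2 fold change ± SE (y axis) of the 13 mitochondrially encoded genes, placed in order of start position (x axis), in the 4 comparisons with LPS, with filled points for adjusted p under 0.05. ND2 and COX1 are lowest in LPS against control (−0.29 and −0.28), and ND5 and ND6 are highest in LPS_EF_PF against EF_PF (0.53 and 0.63).

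Summed over genes, the ratio of the 2 genomes overlapped between groups with and without LPS, apart from LPS_EF_PF against EF_PF. The 13 mitochondrial genes summed to 60465 ± 5190 TPM in LPS livers and 59804 ± 4768 TPM in control livers (SD, n = 5 each), and the nuclear subunits of complexes I to V to 10188 ± 688 TPM in LPS livers and 11154 ± 994 TPM in control livers. The ratio of the mitochondrial to the nuclear sum was 7.15, 6.58, 6.65 and 7.80 in LPS_EF_PF livers, against 5.80, 5.97, 5.88, 6.13 and 4.54 in EF_PF livers, with no overlap. It was 5.76, 6.0, 6.0, 5.65 and 6.25 in LPS livers, against 4.50, 5.37, 6.20, 5.87 and 5.04 in control livers, with overlap. In LPS_EF livers the ratio was 4.75, 5.96, 7.37, 5.51 and 5.42, against 8.24, 7.53, 4.95, 4.93 and 5.01 in EF livers. The EF livers spread most widely of the 8 groups, with an SD of 1.62. In LPS_EF_RD livers it ran from 5.25 to 7.19, against 5.51 to 6.74 in EF_RD livers. No test was made on these sums.

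**Figure D4:**
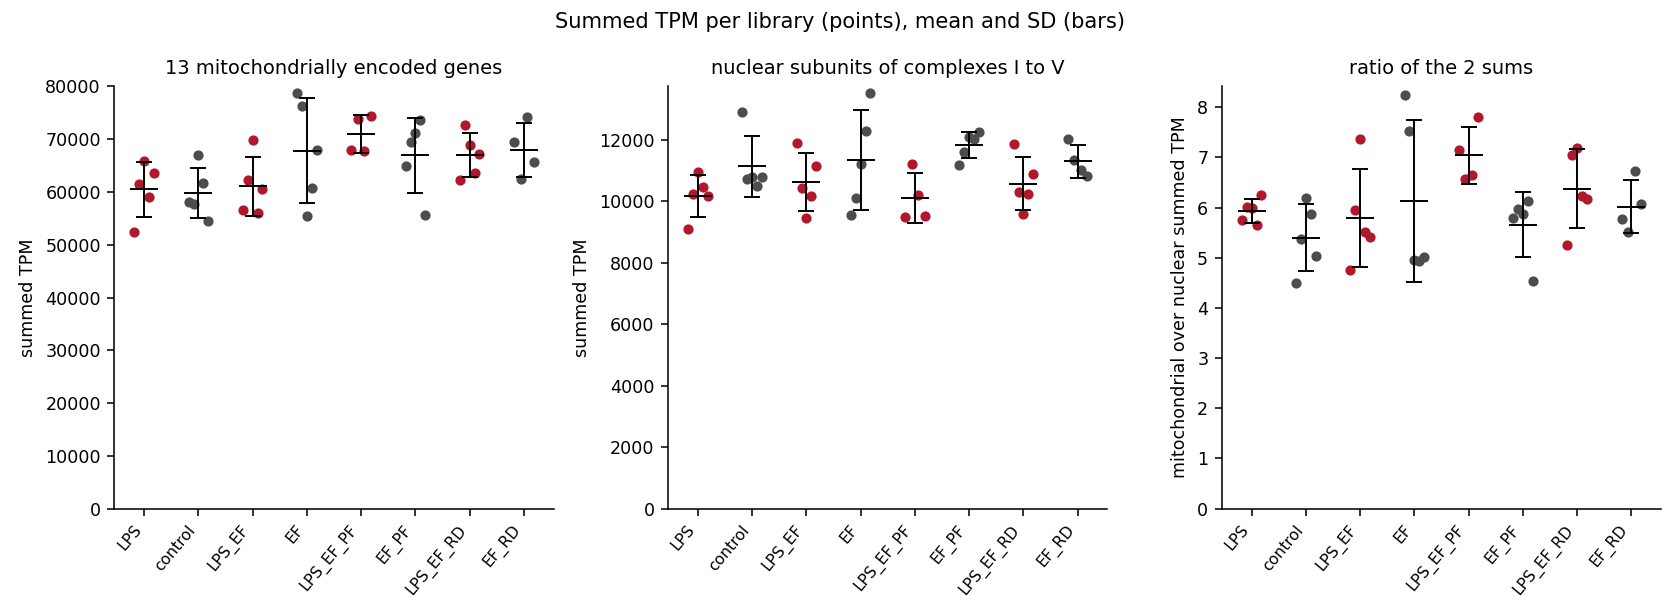
Summed TPM (y axes from 0) of the 13 mitochondrially encoded genes, of the nuclear subunits of complexes I to V, and the ratio of the 2 sums, per library (points) in the 8 groups (x axis; LPS groups in red), with mean and SD. The LPS_EF_PF livers have ratios of 6.58 to 7.80 and the EF_PF livers of 4.54 to 6.13.

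Within groups, nuclear members moved together from liver to liver and the mitochondrial genes did so apart from them. Over deviations of log2 CPM from the group means in 38 libraries, the median correlation between pairs of nuclear members was 0.65 (3486 pairs), and between pairs of mitochondrial genes 0.60 (78 pairs). Between a nuclear and a mitochondrial gene it was 0.01 (1092 pairs), and between a nuclear member and the other tested genes −0.02. These are descriptions, since all pairs share the same libraries and their scaling. Without EF 5 and EF 1, the 2 libraries whose nuclear mean lay farthest out, the medians were 0.54 for nuclear pairs, 0.58 for mitochondrial pairs and −0.04 between the genomes. The genes most like the mean of the other nuclear members were Cox4i1 (r = 0.95), Ndufb9 (0.94) and Ndufb11 (0.94). Ndufaf4, which had the widest falls after LPS, had r = 0.05 and Uqcrc2 0.02.

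Single livers carried much of this spread. In EF 5, 81 of 84 nuclear members lay above the EF mean, by 0.50 on average on the log2 scale, and in EF 1 only 2 did, with an average of −0.31. In control 3, 83 of 84 lay above the control mean, by 0.26 on average. The hepatocyte markers summed to 231054 CPM in EF 5, the highest EF library, to 168506 CPM in EF 1, the lowest, and to 195173 CPM in control 3, near the bottom of the control range. Without control 3, 17 in place of 28 nuclear members were called in LPS against control. Without EF 5, 14 in place of 25 were called in LPS_EF against EF, and without EF 1, 32.

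**Figure D5:**
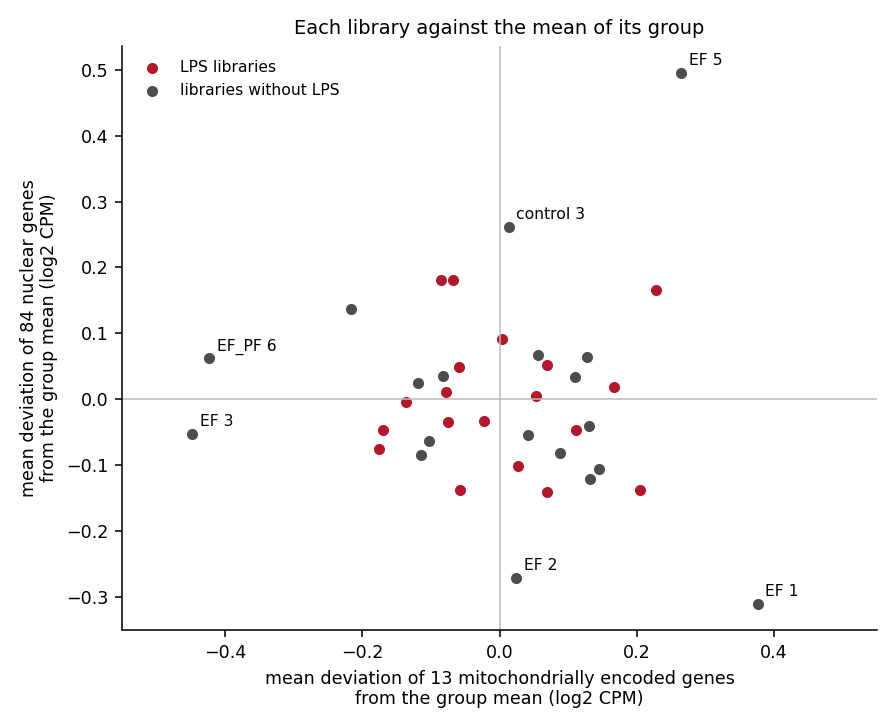
Mean deviation from the group mean (log2 CPM) of the 84 tested nuclear genes (y axis) and the 13 mitochondrial genes (x axis) in each of 38 libraries (points; LPS libraries in red). EF 5 lies 0.50 above its group on the nuclear axis and at −0.31 EF 1 lies lowest.

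Isoforms of muscle and other tissues were near the floor of counting, except in the 2 libraries with muscle markers. Cox6a2, the heart and muscle isoform of subunit 6a, had 229 counts in EF_RD 1 and 50 in LPS 3, and at most 2 in any other library. Cox8b, the muscle isoform of subunit 8, had 71 counts in EF_RD 1 and 26 in LPS 3, and at most 2 elsewhere. These are the 2 libraries in which muscle markers summed to 5504 and 560 CPM. Cox7a1, the muscle isoform of subunit 7a, had 3 counts in EF_RD 1 and 1 in LPS 3, within its range of 0 to 10 over all libraries. None of the 3 passed the count filter. Cox7b2 and Cox8c had 0 counts in all 38 libraries. Cox4i2, the isoform of subunit 4 known from lung and low oxygen, passed the filter with 0 to 52 counts per library and was called in no comparison. Its highest libraries were LPS_EF_RD 2 with 1.78 CPM and EF_RD 1 with 0.74 CPM, and its fold change in LPS_EF_PF against EF_PF was 1.40 ± 0.62 (adjusted p = 0.0719). With both EF_RD 1 and LPS 3 left out, 22 nuclear members were called in LPS against control and 6 in LPS_EF_RD against EF_RD.

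Without LPS, no nuclear member was called between an extract group and control. EF against control called 0 of 84 nuclear and 0 of 13 mitochondrial genes, where 0.92% of all genes were called. At an unadjusted p under 0.05 edgeR had 5 nuclear and 3 mitochondrial genes, all higher, and DESeq2 called 0 and 1. EF_RD against control also called 0 and 0 (background 1.52%), with 2 nuclear genes lower and 4 mitochondrial genes higher at an unadjusted p under 0.05, and DESeq2 called 0 and 1. EF_PF against control called 0 nuclear genes (background 0.622%; 5 at an unadjusted p under 0.05 and 0 by DESeq2) and 1 mitochondrial gene, higher, where 0.446% of all genes were called higher. It was ATP8, a small subunit of the ATP synthase membrane part, with 106, 108, 127, 116 and 88.2 CPM in EF_PF livers, against 81.6, 76.9, 83.0, 82.1 and 71.5 CPM in control livers. The groups did not overlap (0.47 ± 0.11, adjusted p = 0.0369), and the call was lost in 14 of 21 alternatives. ATP8 was also the gene with the smallest p in EF_RD against control (adjusted p = 0.0629). All 3 of these comparisons share the control livers. Their backgrounds are shares of genes called, and the share of all genes at an unadjusted p under 0.05 is not given.

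After LPS, no member was called between an extract group and LPS alone. Of all genes, 0.108% were called in LPS_EF, 0.0406% in LPS_EF_PF and 0.0135% in LPS_EF_RD against LPS. The counts at an unadjusted p under 0.05 in edgeR were 5 nuclear and 0 mitochondrial genes in LPS_EF against LPS. They were 0 and 8 in LPS_EF_PF against LPS, and 2 and 5 in LPS_EF_RD against LPS. The share of all genes at that looser threshold is not given, so these counts have no background. The 8 and the 5 mitochondrial genes were all higher than in LPS alone. DESeq2 called 1 mitochondrial gene higher in LPS_EF_PF against LPS and no other member. The interactions called no member either, with 0 calls by DESeq2. Of all genes, edgeR called 0.108% for LPS by EF, 0.0812% for LPS by EF_PF and 0.128% for LPS by EF_RD. At an unadjusted p under 0.05 edgeR had 2, 1 and 0 nuclear genes in that order and 0 mitochondrial genes each, again without a background. The difference between the LPS responses of EF_PF and EF_RD livers was not tested. A missed threshold does not show that the responses are alike.

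Genes that serve the chain were counted from lists of other pathway members, to be read against the 18.1% of all genes called lower in LPS against control and the 10.7% in LPS_EF_RD against EF_RD. Of 18 genes for mitochondrial RNA stability and processing, 12 (66.7%) were lower and none higher in LPS against control (median −0.34), and 11 of 18 (61.1%) were lower and 1 higher in LPS_EF_RD against EF_RD, where 6 of 84 nuclear subunits and assembly factors were called. Hsd17b10, a subunit of mitochondrial RNase P, averaged 132 ± 12.3 CPM in LPS livers and 221 ± 12.5 CPM in control livers (−0.74 ± 0.13, adjusted p = 4.60e-05). Trmt10c, its partner in RNase P, had −0.64 ± 0.12 (adjusted p = 0.000106). Of 15 genes for mitochondrial transcription and genome maintenance, 6 (40%) were lower (median −0.25), among them Tfb2m, a transcription factor of the mitochondrial polymerase (−0.50 ± 0.12, adjusted p = 0.00180), and Tfam, which packages mitochondrial DNA (−0.25 ± 0.06, adjusted p = 0.00190).

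Among 9 tested nuclear regulators of mitochondrial genes, 1 (11.1%) was lower in LPS against control. It was Yy1, at 18 ± 0.32 CPM in LPS livers and 25.9 ± 2.32 CPM in control livers (−0.53 ± 0.09, adjusted p = 3.55e-05), while Gabpa had −0.14 ± 0.08 (adjusted p = 0.189). Of 36 assembly factors outside the name rule 13 (36.1%) were lower and none higher (median −0.18), and of 73 mitochondrial ribosomal protein genes 14 (19.2%, near the share of all genes) were lower and 2 higher (median −0.11). Electron carriers and entry dehydrogenases had 9 of 19 (47.4%) lower and 1 higher (median −0.26). Etfdh, which passes electrons from fatty acid oxidation to ubiquinone, averaged 186 ± 30.5 CPM in LPS livers and 326 ± 20.6 CPM in control livers (−0.81 ± 0.12, adjusted p = 9.69e-06). In the citric acid cycle 4 of 13 genes (30.8%) were lower (median −0.11), led by Sucla2, a subunit of succinyl-CoA synthetase (−0.71 ± 0.10, adjusted p = 7.01e-06). Of the 73 ribosomal protein genes, 28 (38.4%) were lower and 0 higher in LPS_EF against EF. In LPS_EF_PF against EF_PF 16 (21.9%) were lower and 1 higher, and in LPS_EF_RD against EF_RD 11 (15.1%) and 0. Of the 9 regulators, 2 (22.2%), 3 (33.3%) and 3 (33.3%) were lower in that order, and none was higher. The shares of all genes called lower were 14.5%, 17.3% and 10.7%.

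The list of the ATP synthase inhibitor, carriers and uncouplers had more genes higher than lower in LPS against control (median 0.14). Of its 6 genes 3 (50%) were higher and 1 (16.7%) lower, where 18.6% of all genes were called higher and 18.1% lower. Atpif1, the inhibitor of ATP synthase, averaged 9.20 ± 1.18 CPM in LPS livers and 7.19 ± 1.07 CPM in control livers (0.35 ± 0.14, adjusted p = 0.0438). Ucp2, an uncoupling protein relative also known from immune cells, averaged 52.6 ± 10.8 CPM in LPS livers and 29 ± 14 CPM in control livers (0.86 ± 0.27, adjusted p = 0.0125). All 14 tested neutrophil and monocyte markers were higher in the same comparison, and their part in the Ucp2 value was not tested. Slc25a4, the adenine nucleotide carrier known from muscle, averaged 17.4 ± 11.2 CPM in LPS livers and 6.65 ± 1.51 CPM in control livers (1.39 ± 0.53, adjusted p = 0.0378), in a group that includes LPS 3 with its muscle markers. The gene called lower was Hccs, which attaches haem to cytochrome c (−0.55 ± 0.09, adjusted p = 3.00e-05).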

How the data were processed

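Liver RNA of 38 rats was measured by RNA-seq. The authors deposited whole-number counts of read pairs per gene, made with featureCounts 2.0.6 on a RefSeq annotation of rn6, per the file headers, whose recorded command sets neither strandedness nor multi-mapping. STAR, RSEM and mRatBN7.2 appear in the submitters' processing notes as well, and no source used here says which build the reads were mapped to. The positions of genes are those of the count table, called rn6 after its header. The deposited TPM values equal the counts divided by gene length and scaled, within 0.0495% over 432813 values of 1 TPM or more in 31011 matched names, and 27 names were not matched. All 38 columns matched a sample title.

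The test was that of edgeR 4.0.16 (R 4.3.3) after filterByExpr (minimum count 10, minimum total 15) and TMM scaling, with a quasi-likelihood fit of 8 group means to all 38 libraries, for 13 comparisons including 3 interactions of LPS with an extract treatment. P-values are two-sided and adjusted over all 14786 genes tested within a comparison. SE is an approximate standard error of the log2 fold change. It was back-calculated as the size of the fold change over the square root of the quasi-likelihood F statistic. The fit was tested on simulated data.

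Named members are those with the widest called rise or fall per complex at 2 CPM or more in the higher group, all called mitochondrial genes, the isoforms and the complex II genes. Each pathway list is given by at most 4 genes, those with the smallest p. The members, lists and rules were chosen with earlier results of these data known. Alternatives were TMM replaced by other scalings, no filter, DESeq2 1.42.0, limma 3.58.1 on log2(TPM + 1) or log2(TPM + 0.1) with a filter of 1 TPM in 4 libraries or none, fitting the compared groups alone, the replicate number as a block, and leaving out libraries. Promoters were matched by symbol or unique synonym to RefSeq tables of GRCr8. Some items are not reported here. No molecular identifiers are described, so counts are not independent molecules.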

Additional observations from a re-analysis of the deposited data

Results flagged for a closer look

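In 30 of 327 groups of 4 or 5 libraries, 1 library stood apart from the rest by Dixon's gap criterion (9.17%, in 17 libraries). The groups covered the named members, not all members, and the summed TPM values with their ratio. Chance alone sets about 1 in 20 groups of normally distributed values apart. Isoforms near the floor of counting are not such values, and the groups are not independent.

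Control 3 was high among the control livers for 6 values. Atp5b had 1545 CPM there, against 1150 to 1169 CPM in the other 4, and Atp5g3 had 158 CPM, Ndufab1 51.9 CPM, Ndufs7 44.1 CPM and Uqcrb 29.8 CPM. The summed TPM of nuclear subunits was 12917 in that library, against 10495 to 10810 in the other control livers.

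EF_RD 1 and LPS 3, the libraries with muscle markers, stood apart for muscle isoforms. EF_RD 1 had 9.90 CPM of Cox6a2 and 3.07 CPM of Cox8b, against 0 in the other EF_RD livers, and also 0.735 CPM of Cox4i2 and 0.605 CPM of Ndufa4l2. LPS 3 had 1.85 CPM of Cox6a2 and 0.962 CPM of Cox8b.

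Genes of the ATP synthase c subunit stood apart in 4 values outside control 3's. Atp5g1 was high in LPS_EF 3 (72.4 CPM), LPS_EF_PF 3 (53.0 CPM) and LPS 1 (54.2 CPM), and Atp5g2 was high in LPS_EF 3 (95.3 CPM, against 66.7 to 73.2 CPM in the other LPS_EF livers). Most nuclear members were raised in LPS_EF 3 and LPS_EF_PF 3, with 81 and 75 of 84 above the group mean. In LPS 1 it was 39 of 84.

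Cox4i2 reached 1.78 CPM in LPS_EF_RD 2, and CYTB 4300 CPM in LPS_EF 5. EF_PF 1 was low for Cox7a2 (40.8 CPM) and Cox8a (56.3 CPM), and LPS_EF_RD 4 was low for Cox7a2l (40.8 CPM) and Ndufa4l2 (0.0407 CPM). Ndufaf7 was low in LPS_EF 7 (4.57 CPM) and high in LPS_EF_PF 1 (9.61 CPM), and Uqcrc2 was low in LPS_EF_PF 6 (111 CPM). The ratio of mitochondrial to nuclear summed TPM was low in EF_PF 6 (4.54). The remaining values are of 1 or 2 counts: Cox6a2 in EF 1 (0.0910 CPM), Cox6b2 in EF_PF 6 (0.0941 CPM), and Cox8b in EF_PF 2 (0.0440 CPM) and control 4 (0.0767 CPM).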

How the results depend on the processing

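No named gene reversed its direction under any alternative, and 21 of 39 named gene results that passed the test kept their call in all of them. The cause of each shift was not tested unless the setting itself removes libraries. For nuclear genes, calls in LPS against control numbered 16 by total counts, 17 by limma on log2(TPM + 1), 18 with a pseudocount of 0.1 and 15 without a TPM filter, in place of 28. Fitting only the groups compared gave 32 calls there and 66 in LPS_EF_PF against EF_PF. In LPS_EF against EF they numbered 7 when only these groups were fitted and 16 by limma without a filter, in place of 25. In LPS_EF_PF against EF_PF they numbered 25 by total counts, 25 by limma with either pseudocount and 24 without a filter, in place of 46, and in LPS_EF_RD against EF_RD 2 when only these groups were fitted, in place of 6. Without the count filter, 1 nuclear gene was called in EF_RD against control and 1 in the LPS by EF_RD interaction. DESeq2 called 28, 26, 48 and 9 nuclear genes in the 4 comparisons with LPS.

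Mitochondrial calls were less stable. In LPS against control they numbered 1 (total counts, where the call was a higher one, groups alone, block, and limma with either filtered pseudocount) or 0 (no count filter, limma without a filter), in place of 2. In LPS_EF against EF they numbered 1 (total counts, filtered limma) or 0 (groups alone, limma without a filter), in place of 2. In LPS_EF_PF against EF_PF they numbered 5 (total counts, filtered limma), 4 (block, limma without a filter) or 1 (no count filter), in place of 2. In LPS_EF_RD against EF_RD the 1 call became 0 by total counts, no count filter, groups alone and limma. In EF_PF against control the 1 call became 0 by total counts, no count filter, block and limma, and 2 by DESeq2. In EF_RD against control 1 was called by total counts and by DESeq2, and DESeq2 also called 1 in EF against control and 1 in LPS_EF_PF against LPS.

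Leaving out 1 library at a time gave 17 to 29 nuclear calls in LPS against control, 14 to 32 in LPS_EF against EF, 32 to 53 in LPS_EF_PF against EF_PF, 4 to 11 in LPS_EF_RD against EF_RD and 0 to 1 in EF against control. Mitochondrial calls ran from 0 to 2, 1 to 4, 0 to 3 and 0 to 1 in the 4 comparisons with LPS, and from 0 to 1 in each extract group against control. The other comparisons kept 0 calls. The nuclear median in LPS_EF against EF ran from −0.26 to −0.02, with −0.02 without EF 5. COX1 in LPS against control lost its call in 8 of 21 alternatives, with adjusted p from 0.00314 to 0.673.

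Replicate numbers are shared between groups. Same-numbered livers had a correlation of deviations over 0.1 in 8 of 29 pairs. The correlations ran from −0.25 to 0.25, with negative values about as strong as positive ones, so the pairs as a set showed no common direction. In 1 comparison, EF_RD against control, every pair was over 0.1 (0.20 and 0.16). Whether a shared number stands for shared handling was not tested. With the replicate number as a block, 19, 29, 46 and 4 nuclear genes were called in the 4 comparisons with LPS, in place of 28, 25, 46 and 6.

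Depth bears most on the isoforms and on Cox4i2, which had at most 52 counts per library.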

Other observations

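Among the 4 genes with the smallest p of the lists of electron carriers (9 of 19 lower in LPS against control) and of the citric acid cycle (4 of 13 lower), 6 have not been described above. Etfa, a subunit of the electron transfer flavoprotein, averaged 134 ± 14.8 CPM in LPS livers and 198 ± 29.1 CPM in control livers (−0.56 ± 0.11, edgeR adjusted p = 0.000200). Adck3, a kinase-like protein of ubiquinone synthesis, averaged 146 ± 50.3 CPM in LPS livers and 290 ± 59.5 CPM in control livers (−0.99 ± 0.22, edgeR adjusted p = 0.000679). Pdss2, which makes the ubiquinone side chain, had −0.38 ± 0.09 (edgeR adjusted p = 0.000750). Suclg2 and Suclg1, subunits of succinyl-CoA synthetase, had −0.55 ± 0.09 (edgeR adjusted p = 4.16e-05) and −0.35 ± 0.08 (edgeR adjusted p = 0.00173). Fh, fumarase, which takes the product of complex II, had −0.47 ± 0.15 (edgeR adjusted p = 0.0129). In LPS_EF_PF against EF_PF the same 6 genes were also called lower, at −0.59 for Etfa, −0.95 for Adck3, −0.30 for Pdss2, −0.50 for Suclg2, −0.39 for Suclg1 and −0.59 for Fh.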
